A study of Mus musculus with 40 samples.

Results

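Collagen chains are the most abundant structural proteins of the tumor stroma, and their genes were followed here as a family. Members were all rows of the count table whose symbol is a collagen alpha chain (Col, a type number, the letter a and a chain number), which gave 44 of 54087 genes. They were split by type into 9 fibrillar genes (types I, II, III, V and XI), 6 type IV genes, which build basement membranes, and 29 genes of other types. Of the 44, 30 passed the filter on low counts and were tested (7 fibrillar, 3 type IV and 20 others), among 14760 genes tested in all.

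The samples were 40 CT26 tumors, 1 from each of 40 BALB/c mice, with 5 mice in each of 8 treatment groups. CT26 is a mouse colon carcinoma line that grows in BALB/c mice, and every mouse, controls included, received 1000000 CT26 cells under the skin. Antibodies were injected on days 6, 9 and 12 and the tumors were taken on day 13. The groups received motavizumab (the isotype control, mIgG2a), anti-PD-1 FcS (an Fc-silent antibody to the T-cell checkpoint receptor PD-1), anti-TGF-β (clone 1D11), or anti-GARP:TGF-β1 (clone 58A2, mIgG2a) in its WT form or in the FcD form, whose Fc part is inactive. In the other 3 groups anti-TGF-β, the WT form or the FcD form was given together with anti-PD-1 FcS. Clone 58A2 blocks release of TGF-β1 from the GARP:TGF-β1 complex on regulatory T cells, whereas 1D11 neutralises TGF-β itself. The labels give no age for the mice. Each sample was total RNA of a single tumor piece, so fewer cells of a type and less collagen RNA per cell cannot be told apart.

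Fibrillar collagens form the tensile fibers of connective tissue. Type I is built from the products of Col1a1 and Col1a2, type III from Col3a1, and type V, from the Col5a genes, is built into the core of type I fibrils. Type IV chains from Col4a1 and Col4a2 form the sheet under endothelium and epithelium, type VI makes beaded microfilaments next to cells, and types XV and XVIII sit at basement membranes. Fibroblasts are the main source of fibrillar collagen in most tissues, and TGF-β is a known inducer of their collagen genes, which is the question that a TGF-β antibody puts to this family.

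Promoter sequence is shown for 3 members whose values the text turns on: Col3a1 and Col5a3, which both followed fibroblast markers from tumor to tumor, and Col10a1, which differed between the 2 sets of libraries. Each run is the 250 bases before the start site, 5′ to 3′, from RefSeq on GRCm38.p6, and none of the 3 windows overlaps an annotated exon. Capitals mark exact matches, on either strand, to 4 short motifs, the TATA box, the CCAAT box, the GC box and the core SMAD element.
Col3a1, chr1:45311288-45311537, plus strand: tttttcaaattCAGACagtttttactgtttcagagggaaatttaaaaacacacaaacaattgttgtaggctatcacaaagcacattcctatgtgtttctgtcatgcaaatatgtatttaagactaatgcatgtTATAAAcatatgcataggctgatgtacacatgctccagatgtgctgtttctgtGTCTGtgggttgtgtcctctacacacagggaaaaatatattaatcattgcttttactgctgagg
Col5a3, chr9:20815068-20815317, minus strand: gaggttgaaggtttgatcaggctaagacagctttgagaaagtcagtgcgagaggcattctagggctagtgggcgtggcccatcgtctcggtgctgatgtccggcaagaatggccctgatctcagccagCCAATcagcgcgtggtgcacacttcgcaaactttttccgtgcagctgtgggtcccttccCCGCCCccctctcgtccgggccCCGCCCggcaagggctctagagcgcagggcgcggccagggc
Col10a1, chr10:34389731-34389980, plus strand: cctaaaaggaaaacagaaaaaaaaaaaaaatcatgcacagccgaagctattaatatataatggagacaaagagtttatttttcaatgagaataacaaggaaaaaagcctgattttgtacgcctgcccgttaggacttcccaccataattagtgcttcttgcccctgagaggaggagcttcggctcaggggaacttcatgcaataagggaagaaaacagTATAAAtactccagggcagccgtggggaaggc

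The Col3a1 window held a TATA box 117 bases and SMAD elements 239 and 64 bases before the start site. The Col5a3 window held a CCAAT box 122 bases and GC boxes 63 and 41 bases before it, and no TATA box. The Col10a1 window held a TATA box at 32 bases. Among 32851 RefSeq promoters of this length, 12.4% held the TATA box, searched as TATAAA, against 5 of the 35 collagen genes with a promoter in the table. The CCAAT box, searched under its own letters, was in 33.8% of promoters and in 13 collagen genes. The GC box, searched as GGGCGG, was in 32.7% and in 21. The SMAD element, searched as CAGAC, was in 42.2% and in 17. The matches are descriptions and not tested sites.

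The libraries held 11931730 to 20680548 counts each, and collagen genes took 0.268% to 0.811% of them. Y-chromosome transcripts were found in the 20 libraries with numbers 41 to 60, and Xist in the 20 with numbers 61 to 80, with 2 or 3 of each in every group. A few tumors stood apart from the rest in markers of other cell types. Anti-GARP:TGF-β1 WT plus anti-PD-1 replicate 5 had the highest summed leukocyte markers (8103 CPM, against a median of 2063 over all tumors) and endothelial markers (928 CPM, median 266). Anti-GARP:TGF-β1 FcD plus anti-PD-1 replicate 4 had the highest adipocyte markers (1155 CPM, median 76.6). CPM is the count scaled to a library of 1000000 counts, after TMM normalisation. Anti-PD-1 replicate 2 had the highest skeletal muscle markers (288 CPM, median 9.49). Anti-TGF-β replicate 2, the tumor of highest Col3a1, had 604 CPM of endothelial markers and 191 CPM of pericyte and smooth muscle markers (median 84.8). In its group summed leukocyte markers reached 4149 CPM and adipocyte markers 727 CPM. The part of these markers in its collagen values was not tested.

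Col1a2 and Col3a1, chains of types I and III, led the family. Levels between genes are compared per length, as RPKM (CPM per kilobase of the mRNA with the longest coding sequence). Col1a2 had the highest mean level over the 40 tumors, at 222 RPKM, followed by Col3a1 at 116, Col4a1 at 68.1 and Col1a1 at 67.9. Col6a1 stood at 48.4 RPKM, Col4a2 at 42.8, Col16a1 at 42.3, Col6a2 at 24.3, Col8a1 at 20.6, Col18a1 at 18.8 and Col5a1 at 17.7. The other minor fibrillar chains were lower, with Col5a2 at 6.59 RPKM, Col5a3 at 5.45 and Col11a2 at 0.6.

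**Figure D1:**
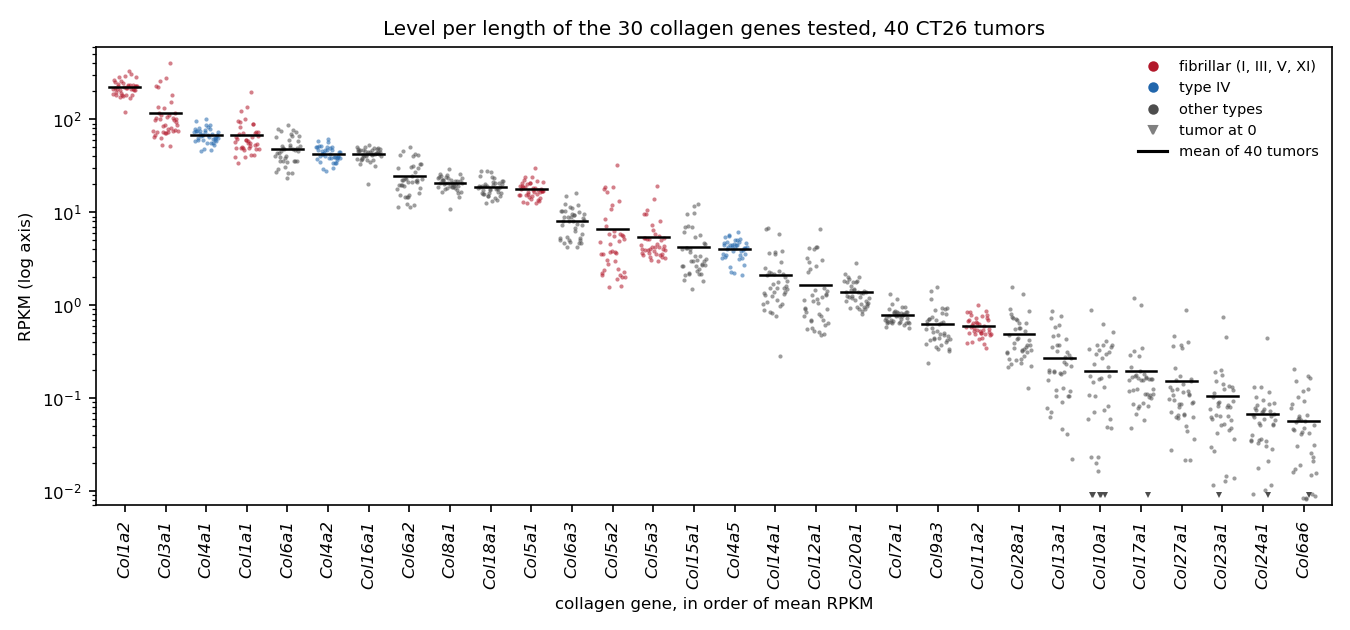
Level per length (RPKM, log axis) of the 30 collagen genes tested in each of the 40 tumors, with the mean as a black line and tumors at 0 as triangles at the lower edge. Col1a2, with a mean of 222 RPKM, lay within a narrow band, whereas the tumors spread widely for Col5a2, whose mean was 6.59 RPKM.

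Neighbours in this order often overlapped. Col4a1 ranged from 45.7 to 101 RPKM over the tumors and Col1a1 from 34.1 to 199, so their order is not fixed. Col1a2 ranged from 120 to 329 RPKM, above the range of Col4a1. The ratio of Col1a2 to Col1a1 in RPKM had a mean of 3.59 (SD 0.902, n = 40) and ranged from 1.65 to 5.33. The Col4a1 to Col4a2 ratio was tighter, at 1.59 (SD 0.0841, n = 40), and ranged from 1.44 to 1.77.

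None of the 30 collagens passed an adjusted p of 0.05 in any of the 18 comparisons between treatments (edgeR quasi-likelihood test, Benjamini-Hochberg over all 14760 genes). These were each of the 7 treatments against isotype, each of the 3 combinations against anti-PD-1 alone, the main effects of the 4 antibodies, anti-TGF-β against anti-GARP:TGF-β1, and the 3 interactions. The smallest adjusted p among the 540 tests of a collagen was 0.0911. Among all genes, 0% were called in the 7 comparisons with isotype, 0.589% (87 genes) for the main effect of anti-PD-1, 0.0271% for anti-TGF-β against anti-GARP:TGF-β1, and 0.00678% both for the main effect of anti-TGF-β and for its combination against anti-PD-1. For the other 7 comparisons between treatments the share was 0%. The DESeq2 Wald test called more genes in several of these, with 139 for anti-TGF-β plus anti-PD-1 against isotype, 78 for it against anti-PD-1, 59 for the main effect of anti-TGF-β and 14 for the FcD combination against isotype. At an unadjusted p under 0.05, 43 of the 540 tests of a collagen passed (7.96%), 25 of them higher (4.63%) and 18 lower (3.33%). Over all genes and the same 18 comparisons 10.5% of tests passed, 5.76% higher and 4.76% lower. The difference between these shares was not tested. The median within-group SD of log2 CPM was 0.56 over the collagens and 0.25 over all genes tested. The comparisons share tumors and are not independent.

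The values of the main type I and III chains show how far the tumors of each group overlapped. Col1a1 (chr11:94936224-94953042, GRCm38, plus strand) stood at 431, 323, 435, 396 and 288 CPM in the isotype tumors and at 327, 1181, 247, 383 and 529 CPM in the anti-TGF-β tumors. The anti-TGF-β group thus held both the highest and the lowest Col1a1 level of these 10 tumors. Its main effect over both anti-PD-1 backgrounds was a log2 fold change of 0.15 (95% interval -0.34 to 0.65, SE 0.24), with mean CPM of 447 with anti-TGF-β and 394 without. Without anti-TGF-β replicate 2 the sign turned, to -0.11.

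Col1a2 (chr6:4504814-4541544, plus strand) was the steadiest of the abundant fibrillar chains. It stood at 1214, 1119, 1218, 1535 and 1219 CPM in the isotype tumors and at 1235, 1758, 910, 1254 and 1628 CPM in the anti-TGF-β tumors. The main effect of anti-TGF-β was a log2 fold change of -0.00 (95% interval -0.24 to 0.23). The main effect of anti-PD-1 was -0.17 (SE 0.08, unadjusted p = 0.0465, adjusted p = 0.206), with mean CPM of 1121 with it and 1258 without it. Its 95% interval for Col1a2 ran from -0.33 to -0.00.

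Col3a1 (chr1:45311538-45349706, plus strand) showed the same few tumors apart. It stood at 657, 519, 557, 481 and 414 CPM in the isotype tumors, and at 614, 2263, 285, 454 and 856 CPM in the anti-TGF-β tumors. In the anti-PD-1 group 1 tumor had 1563 CPM while the other 4 had 397 to 584, and in the anti-GARP:TGF-β1 WT group 1 tumor had 1433 CPM while the other 4 had 298 to 622. For Col3a1 the main effects of anti-TGF-β, the WT form, the FcD form and anti-PD-1 were log2 fold changes of 0.29, -0.07, 0.07 and 0.08. Without anti-TGF-β replicate 2 the first turned sign, to -0.059. All 4 intervals held 0, and the widest, for anti-TGF-β, ran from -0.33 to 0.91.

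**Figure D2:**
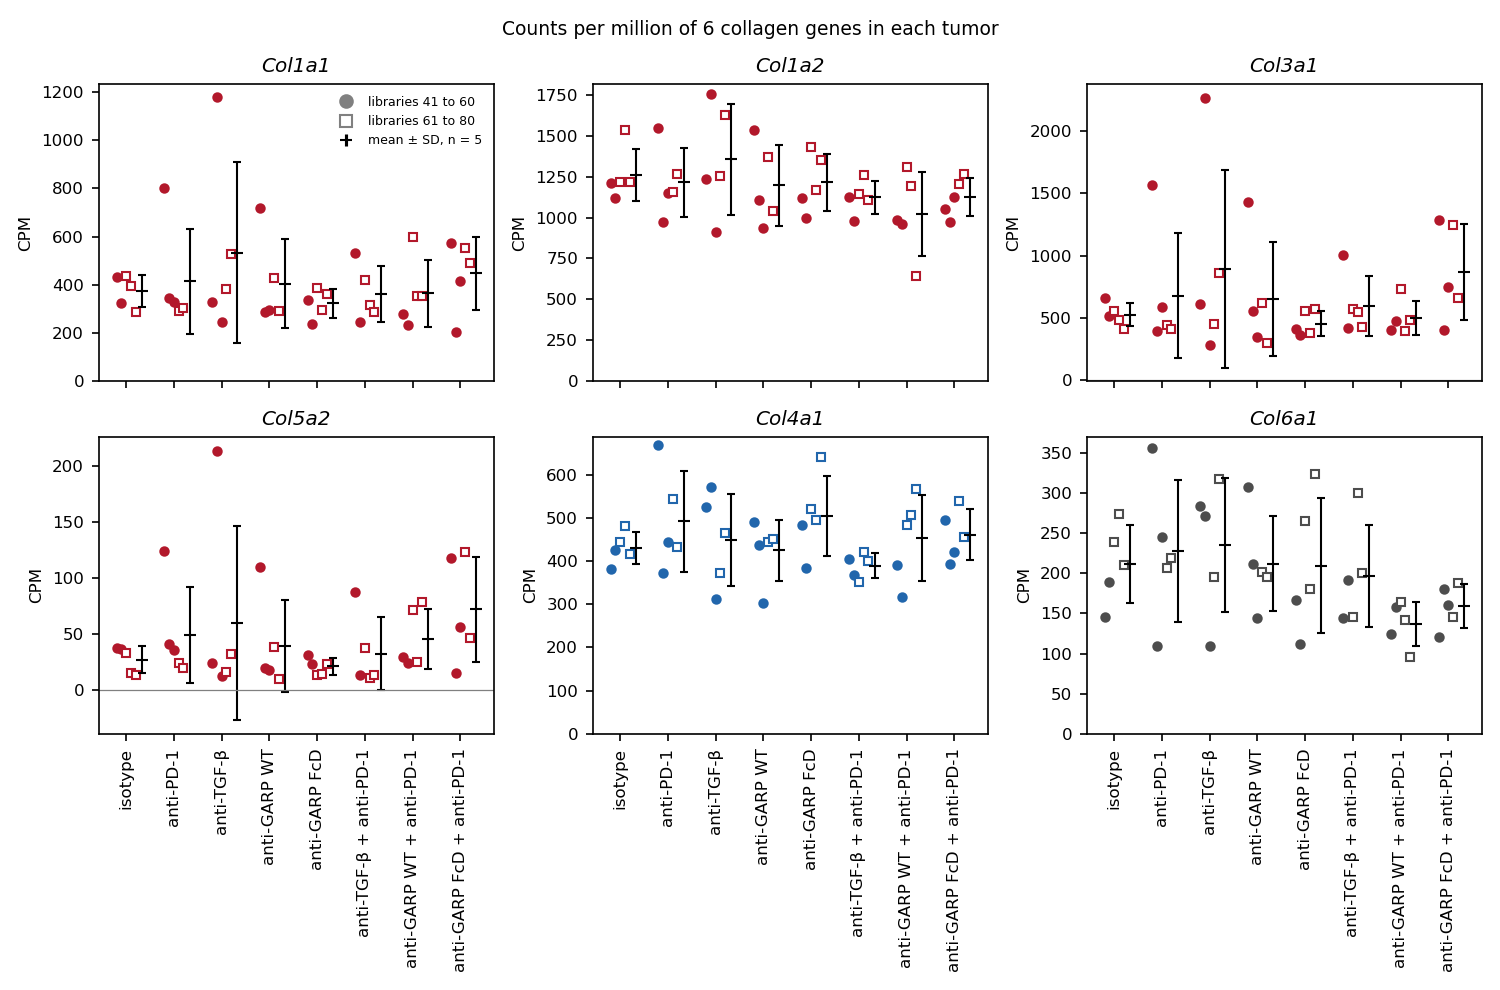
CPM of 6 collagen genes in each tumor by treatment group, with filled circles for libraries 41 to 60, open squares for libraries 61 to 80 and the mean ± SD (n = 5) beside each group. Single tumors, such as the anti-TGF-β tumor at 2263 CPM for Col3a1, set the means of Col1a1, Col3a1 and Col5a2, while the groups overlap for all 6 genes.

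The type V chains differed among themselves. Col5a1 stayed within 2.38-fold between the highest and the lowest of the 40 tumors, whereas Col5a2 (chr1:45374321-45503282, minus strand) spanned 20.4-fold. Col5a2 stood at 37.5, 37.1, 33.8, 15.1 and 13.4 CPM in the isotype tumors and at 24.1, 214, 12.7, 16.2 and 32.3 CPM in the anti-TGF-β tumors. In anti-GARP:TGF-β1 FcD plus anti-PD-1 it stood at 119, 15.9, 56.7, 124 and 47.0 CPM, a log2 fold change of 1.40 against isotype with a 95% interval of -0.04 to 2.85. Col5a3 spanned 6.40-fold. Col5a2 and Col3a1 lie tail to tail on chromosome 1, with 24614 bases between them.

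For the fibrillar class as a whole, 0 of the 7 tested genes passed in the comparisons between treatments. Their median log2 fold change was 0.15 for the main effect of anti-TGF-β, -0.04 for the WT form, 0.05 for the FcD form and 0.08 for anti-PD-1, against medians over all genes of 0.02, 0.00, -0.00 and -0.00. The summed CPM of the 9 fibrillar genes was 2368 ± 227 (SD, n = 5) in isotype tumors and 3057 ± 1640 in anti-TGF-β tumors. The 5 anti-TGF-β tumors stood at 2384, 5789, 1582, 2269 and 3264 CPM, so replicate 2 raised both the mean and the SD of this group. Across the 8 groups the mean sum ran from 2104 in anti-GARP:TGF-β1 WT plus anti-PD-1 to 3057 in anti-TGF-β. The SD ran from 227 in isotype to 1640 in anti-TGF-β.

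Type IV chains were steadier. Col4a1 (chr8:11198423-11312826, minus strand) stood at 382, 425, 444, 481 and 415 CPM in the isotype tumors, and over all 40 tumors the highest was 2.21-fold the lowest. Its groups all overlapped, from 389 ± 28.2 CPM (SD, n = 5) in anti-TGF-β plus anti-PD-1 to 505 ± 92.4 in anti-GARP:TGF-β1 FcD. The main effects on Col4a1 were log2 fold changes of -0.14 for anti-TGF-β, -0.07 for the WT form, 0.07 for the FcD form and -0.01 for anti-PD-1, and every interval lay within -0.37 and 0.30.

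The comparison of anti-TGF-β plus anti-PD-1 with anti-PD-1 alone gave all 3 tested type IV chains an unadjusted p under 0.05, each lower in the combination. Of 11 pericyte and smooth muscle markers, 3 were lower and 0 higher there at the same threshold (median -0.58), and their sum ran from 75.8 to 206 CPM in anti-PD-1, with 206 CPM in replicate 1, against 70.3 to 103 CPM in the combination. The part of these markers was not tested. Col4a5, a chain of the type IV networks of kidney and smooth muscle, had a log2 fold change of -0.54 (SE 0.22, adjusted p = 0.225). For it all 5 combination tumors lay below all 5 anti-PD-1 tumors, and the share of all genes that separated so was not counted. Col4a2 had -0.34 (adjusted p = 0.281) and Col4a1 -0.34 (adjusted p = 0.282). In that comparison 17.1% of all genes passed this unadjusted threshold, 7% higher and 10.1% lower. Without anti-TGF-β plus anti-PD-1 replicate 3, 0 collagens were lower at this threshold, and without its replicate 2 the count was 1 (0 to 5 over all single tumors left out). Without anti-PD-1 replicate 1 the value of Col4a2 was -0.21. Among the other chains Col23a1 had a log2 fold change of -1.56, which was -0.20 without anti-PD-1 replicate 2, the tumor of highest skeletal muscle markers. The part of skeletal muscle markers was not tested. Col4a1 and Col4a2 start back to back, with 22 overlapping bases, and followed each other across tumors, so they do not count as independent genes.

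Of the 4 type VI chains tested, Col6a1 was the 1 with an unadjusted p under 0.05 for anti-GARP:TGF-β1 WT plus anti-PD-1 against isotype, and Col6a1 and Col6a2 were the 2 against anti-PD-1 alone. Col6a1 (chr10:76708792-76726168, minus strand) stood at 145, 189, 238, 274 and 210 CPM in the isotype tumors and at 125, 158, 164, 142 and 95.9 CPM in anti-GARP:TGF-β1 WT plus anti-PD-1, so 2 of the latter lay above the lowest isotype tumor. The log2 fold change was -0.63 (SE 0.28, unadjusted p = 0.0307, adjusted p = 0.203). Without replicate 5 of the combination, the tumor of highest leukocyte markers, it was -0.52 (unadjusted p = 0.0818). Against anti-PD-1 alone it was -0.73 (SE 0.28, adjusted p = 0.232) for Col6a1 and -0.84 (SE 0.34, adjusted p = 0.243) for Col6a2. Against anti-PD-1, Col18a1 (-0.38) was also lower and Col11a2 (0.46) higher at an unadjusted p under 0.05. Without anti-PD-1 replicate 1, 0 collagens were lower there and the value of Col6a2 was -0.51, and without replicate 5 of the combination that of Col11a2 was 0.30. Markers of other cells also differed from anti-PD-1 at that threshold, with 7 of 12 leukocyte markers higher (median 0.78), 10 of 10 skeletal muscle markers lower (median -2.72) and 2 of 21 fibroblast markers lower. The summed skeletal muscle markers were 8.51 to 288 CPM in anti-PD-1 and 7.88 to 13.1 CPM in the combination. The part of these markers was not tested. At that threshold 20.7% of all genes passed against isotype (13.2% higher, 7.47% lower) and 17.2% against anti-PD-1 (11.2% higher, 5.99% lower). Within libraries 61 to 80 alone, Col6a1 passed in the comparison with isotype, and within libraries 41 to 60 it did not.

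**Figure D3:**
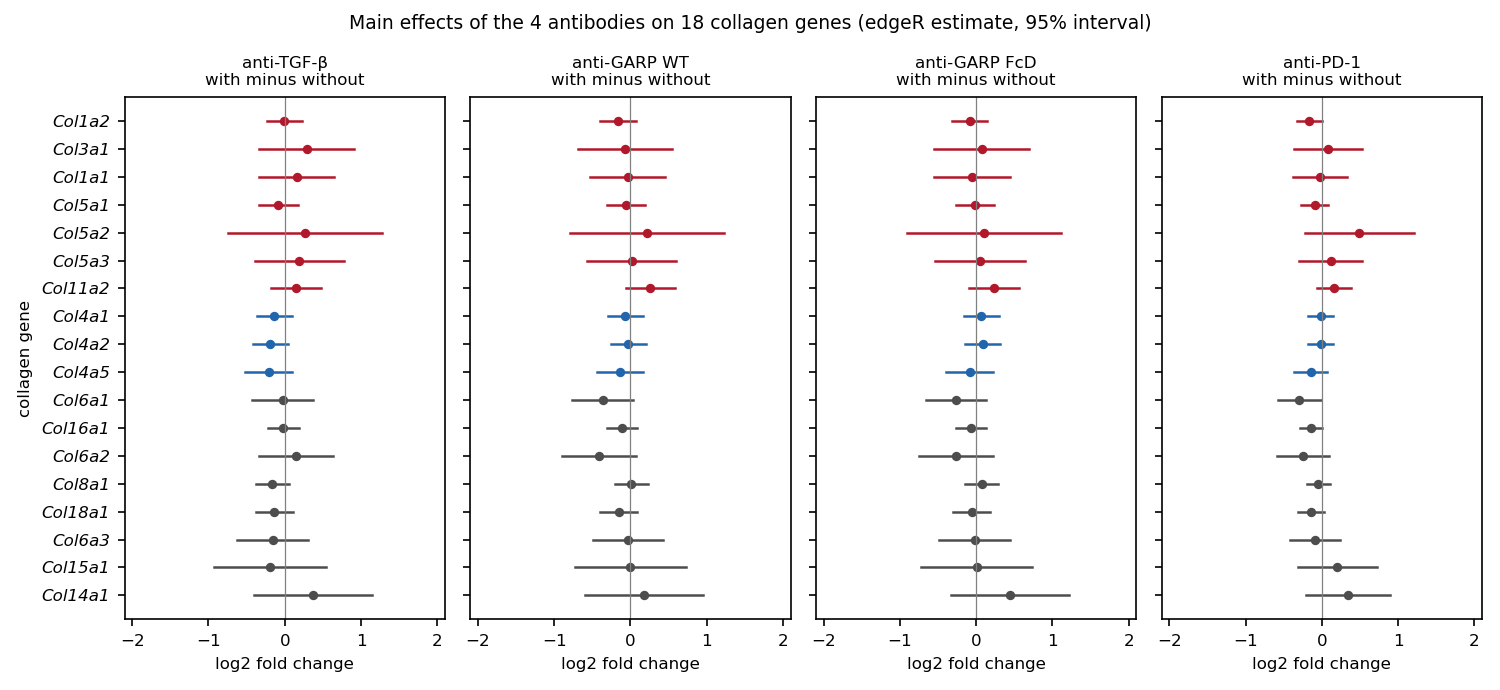
Main effect of each antibody, as the log2 fold change with minus without it (point) and its 95% interval (line), for 18 collagen genes colored by class. For anti-TGF-β, the interval of Col1a2 ran from -0.24 to 0.23 and that of Col5a2 from -0.74 to 1.28.

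Other abundant collagens moved little. Col16a1, a fibril-associated chain, had a within-group SD of 0.24 on the log2 scale, and its lowest value of 104 CPM was in anti-GARP:TGF-β1 WT plus anti-PD-1 replicate 5. Its main effect of anti-PD-1 was a log2 fold change of -0.14 (SE 0.07, adjusted p = 0.216). Col8a1, a short-chain collagen of vessel walls, had main effects between -0.16 and 0.07, and Col18a1, the source of endostatin, between -0.15 and -0.06. Col15a1 and Col14a1 were wider, with main effects between -0.20 and 0.20 for Col15a1 and between 0.18 and 0.44 for Col14a1, and none of their intervals left 0 out.

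Among the scarce collagens, Col9a3 (chr2:180597790-180622189, plus strand), a chain of cartilage type IX collagen, had the most small p-values. It stood at 1.30, 1.42, 0.972, 1.02 and 1.32 CPM in the isotype tumors and at 2.16, 2.19, 1.28, 4.38 and 3.58 CPM in anti-GARP:TGF-β1 FcD plus anti-PD-1. The isotype tumors were low and close together, and only 1 of the 5 combination tumors fell among them. The log2 fold change was 1.17 (SE 0.34, unadjusted p = 0.00162, adjusted p = 0.225), and 16.6% of all genes passed an unadjusted p under 0.05 in that comparison, 10.7% higher and 5.85% lower. In anti-GARP:TGF-β1 WT plus anti-PD-1 the log2 fold change was 1.02 (SE 0.34, adjusted p = 0.159). There 20.7% of all genes passed that unadjusted threshold, 13.2% higher and 7.47% lower. The main effect of anti-PD-1 on Col9a3 was 0.48 (SE 0.17, adjusted p = 0.0955), against 23.4% of genes in either direction, 13.3% higher and 10.1% lower. Those of anti-TGF-β, the WT form and the FcD form were 0.60, 0.55 and 0.56. At an unadjusted p under 0.05, Col9a3 was the 1 collagen in each of these 3, where 14.1%, 5.77% and 2.47% of all genes passed. For the WT form 4.26% were higher and 1.5% lower, and for the FcD form 1.33% and 1.13%. Without replicate 5 of the WT combination, the value for the WT form was 0.36 (unadjusted p = 0.128). The FcD form lost the threshold for Col9a3 without any of 5 single tumors, with 0.44 (unadjusted p = 0.0777) without replicate 4 of its combination. Without both of these tumors, 0 collagens passed for either form. For the FcD form, libraries 61 to 80 alone gave 12 collagens higher, where 5.99% of genes were, and libraries 41 to 60 gave 1, where 0.477% were. For the WT form libraries 61 to 80 gave 3 higher and 1 lower, where 5.68% and 2.14% of genes were, and libraries 41 to 60 gave 0. With the library set in the model, both forms had 2 higher and 1 lower. Of all genes, 4.59% and 1.61% were so for the WT form, and 1.45% and 1.21% for the FcD form. Col9a3 had a mean above isotype in all 7 treatments, which share the same 5 controls. These are 11 to 77 counts a library. Its exons share 234 bases with Tcfl5 on the opposite strand, whose CPM was at most 0.276, and the strand setting of the counting is not given in the sources used here.

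Both tumors at the top for Col9a3 were also the top tumors for other collagens of cartilage and epithelium. Col9a2 stood at 1.68 CPM in anti-GARP:TGF-β1 WT plus anti-PD-1 replicate 5 and at 2.97 CPM in anti-GARP:TGF-β1 FcD plus anti-PD-1 replicate 4, against at most 0.471 CPM in the other 38 tumors. Col9a1 stood at 0.809 and 1.08 CPM against at most 0.404, and Col11a1 at 1.56 and 2.09 against at most 0.858. Col17a1, the hemidesmosome collagen of basal epithelium, stood at 5.66 and 6.74 CPM against at most 1.93. The basal keratin Krt5 stood at 10.6 and 17.8 CPM in these tumors, against a median of 0.0749 and a highest value of 5.38 in the others. Of 10 cartilage and bone markers, 3 are given, chosen after their values were seen. Acan was at 0 CPM in both tumors and Matn1 at 0.187 and 0 CPM (at most 0.163 in the others). Comp stood at 0.934 and 0.674 CPM (median 0.22 and highest 1.79 in the others). Led by Runx2 and Sox9, all 10 summed to 75.2 to 94.3 CPM in isotype. The sum was 68.4 to 105 CPM in the WT combination and 70.1 to 112 CPM in the FcD combination. Of 20 keratinocyte and skin markers, 7 passed the filter and Lor and Flg had no count in any tumor. The summed markers ran from 5.32 to 7.07 CPM in the isotype group, from 4.30 to 29.8 CPM in the WT combination and from 5.26 to 42.0 CPM in the FcD combination, with up to 34.9 CPM in the anti-PD-1 group. Their part in the Col9a3 and Col17a1 values was not tested. Without these 2 tumors, the log2 fold change of Col9a3 in the FcD combination was 0.94 (SE 0.32, adjusted p = 0.353) and that of Col17a1 was 0.41 (SE 0.52), down from 1.53. In the WT combination the log2 fold change of Col9a3 was then 0.62 (SE 0.32, adjusted p = 0.793). The main effect of anti-PD-1 on Col9a3 became 0.32 (adjusted p = 0.32), and the genes called for it in all went from 87 to 0.

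**Figure D4:**
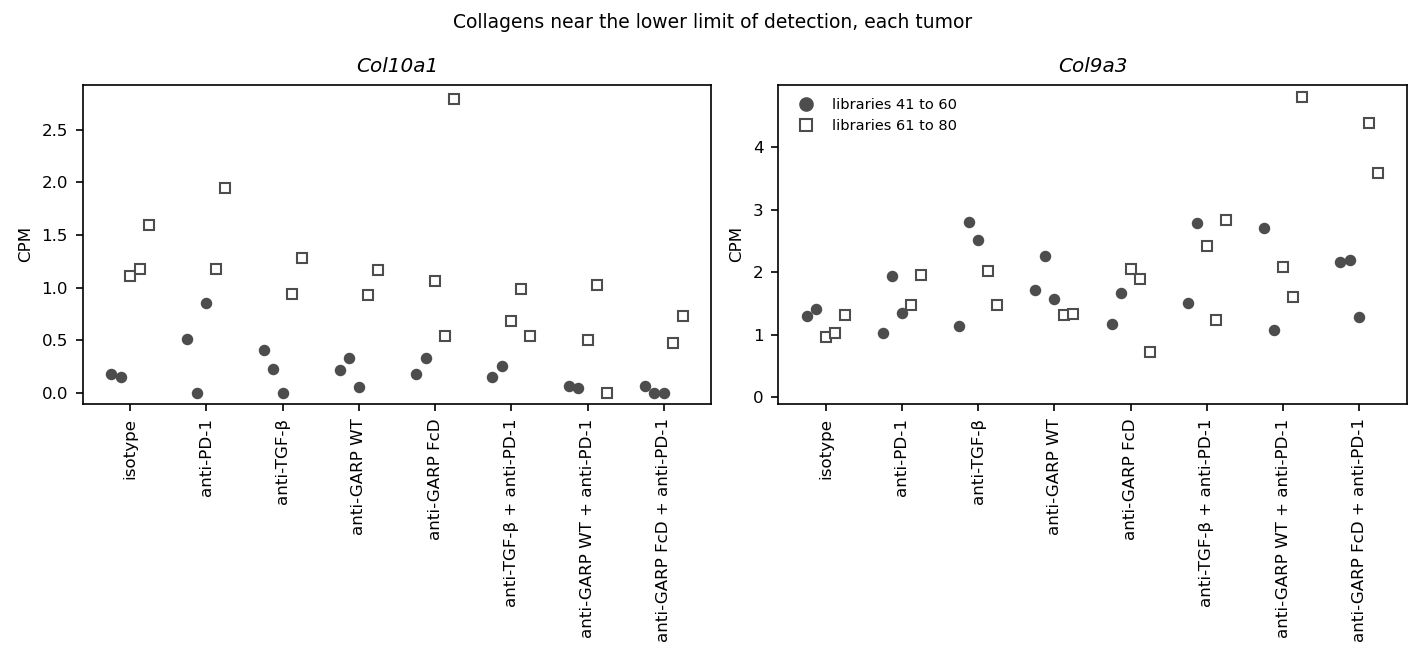
CPM of Col10a1 and Col9a3 in each tumor by treatment group, with filled circles for libraries 41 to 60 and open squares for libraries 61 to 80. The Col9a3 values of 4.79 and 4.38 CPM belong to 1 tumor of each anti-GARP:TGF-β1 combination, and Col10a1 is higher in the open squares of most groups.

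For anti-TGF-β against anti-GARP:TGF-β1 over both forms and both backgrounds, Col20a1 had a log2 fold change of -0.51 (SE 0.15, adjusted p = 0.0911) and Col17a1 one of -1.14 (SE 0.42, adjusted p = 0.129). In the same comparison Col6a2 was at 0.48 (SE 0.20, adjusted p = 0.176), Col4a2 at -0.22 (SE 0.10, adjusted p = 0.193) and Col8a1 at -0.21 (SE 0.09, adjusted p = 0.198). The counts were 1 collagen higher and 4 lower, where 21.1% of all genes passed the same unadjusted threshold, 10.7% higher and 10.4% lower. Both tumors far above the rest for Col17a1 (5.66 and 6.74 CPM, at most 1.93 in the others) had received anti-GARP:TGF-β1. Without them 1 collagen was higher and 2 were lower. With the DESeq2 Wald test Col20a1 passed, as 1 of 565 genes.

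Against isotype, the FcD combination had 7 of 30 collagens higher and 0 lower at an unadjusted p under 0.05, where 10.7% of all genes were higher and 5.85% lower. The count rested on few tumors. It was 1 without replicate 4 of the combination, 3 without its replicate 1, 3 without isotype replicate 2, 2 without isotype replicate 5 and 4 without isotype replicate 3 or 4. Beside Col9a3 and Col17a1, these were Col13a1, a membrane collagen (log2 fold change 1.42), Col6a6 (1.81), Col14a1 (1.19), Col28a1 (0.94) and Col27a1 (1.5). The median over the 30 collagens was 0.40, against -0.00 over all genes, and the medians of 21 fibroblast markers and 12 adipocyte markers in the same comparison were 0.59 and 3.13. Summed leukocyte markers ran from 2328 to 4099 CPM in the FcD combination and from 1434 to 2234 CPM in isotype, with no overlap. Of these 12 markers 4 were higher and 0 lower (median 0.77), and across tumors 6 of the 7 collagens were related to them, with an r of 0.669 for Col27a1, 0.554 for Col28a1, 0.546 for Col9a3, 0.51 for Col14a1, 0.453 for Col6a6 and 0.444 for Col13a1. The r of Col17a1 was 0.412 (adjusted permutation p = 0.0535). For fibroblast markers r was 0.803 (Col14a1), 0.765 (Col28a1), 0.764 (Col27a1), 0.639 (Col6a6), 0.441 (Col13a1), 0.207 (Col17a1) and 0.0244 (Col9a3). For adipocyte markers r was 0.751 (Col28a1), 0.736 (Col27a1), 0.675 (Col6a6), 0.643 (Col14a1), 0.3115 (Col13a1), 0.127 (Col9a3) and 0.123 (Col17a1). The part of all these markers was not tested. In libraries 61 to 80 alone, which hold 2 tumors of the combination, replicates 4 and 5, 12 collagens were higher and 1 lower, where 13.2% and 9.9% of genes were. In libraries 41 to 60, with the other 3 tumors, 0 were, where 1.15% and 1.07% of genes were. The WT combination had 4 collagens higher and 1 lower (median 0.25), where 13.2% of genes were higher and 7.47% lower, and without its replicate 5 it had 0 and 0. There 8 of 16 endothelial markers (median 0.70), 6 of 12 leukocyte markers (0.77), 3 of 11 pericyte and smooth muscle markers (0.73) and 3 of 5 Schwann cell and nerve markers (1.07) were higher, and 0 of each lower. It had 2 higher without isotype replicate 3 or 5. Without that tumor and replicate 4 of the FcD combination together, the FcD combination had 1 higher and 0 lower. Anti-TGF-β plus anti-PD-1 had 1 higher and 0 lower (median -0.08), where 20.1% of genes passed, 8.49% higher and 11.6% lower. The FcD combination set against anti-PD-1 alone had 3 higher (Col9a3, Col28a1 and Col14a1) and 0 lower, where 10.7% of genes passed, 6.46% higher and 4.27% lower, and without its replicate 4 it had 0 and 0. Without anti-PD-1 replicate 3 it had 1 higher. Libraries 61 to 80 alone gave 15 higher and 0 lower of 30, where 9.08% and 5.65% of genes were, and libraries 41 to 60 gave 0 higher and 1 lower of 29, where 1.36% and 0.987% were. With the library set in the model there were 3 higher and 2 lower, where 6.8% and 4.38% of genes were. The combinations share the isotype controls, and their lists were not compared with each other.

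For the single antibodies against isotype, Col9a3 with anti-TGF-β was the 1 collagen at an unadjusted p under 0.05 (log2 fold change 0.72, SE 0.35, adjusted p = 1), where 2.32% of genes passed, 1.77% higher and 0.549% lower. Leaving out single tumors gave 0 to 4 collagens there. With the WT form, the FcD form and anti-PD-1 alone there were 0 of 30, where 0.969%, 0.474% and 0.955% of all genes reached that threshold in either direction. These were 0.583% higher and 0.386% lower for the WT form, 0.264% and 0.21% for the FcD form, and 0.603% and 0.352% for anti-PD-1. For the main effect of anti-PD-1, 3 collagens were higher (Col9a3, Col13a1 and Col12a1, the last at 0.69, SE 0.32) and 2 lower (Col6a1, at -0.30, and Col1a2), where 13.3% of all genes were higher and 10.1% lower. In this comparison 5 of 7 keratinocyte and skin markers (median 0.98), 7 of 12 leukocyte markers (0.36), 6 of 11 pericyte and smooth muscle markers (0.47), 5 of 16 endothelial markers (0.33) and 6 of 21 fibroblast markers (0.47) were higher, with 2 fibroblast markers lower. Their part was not tested. Leaving out single tumors gave 1 to 7 higher and 0 to 5 lower. The ends were 1 higher and 0 lower without anti-PD-1 replicate 2, 7 higher and 1 lower without anti-TGF-β replicate 2, and 2 higher and 5 lower without anti-PD-1 replicate 1. The adjusted calls changed with 1 tumor. Without anti-TGF-β replicate 2, the tumor of highest Col3a1, Col12a1, Col27a1 and Col9a3 passed the adjusted threshold for the main effect of anti-PD-1, where the genes called in all rose from 87 to 2243, or 15.1% of those tested.

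The interaction of each partner with anti-PD-1, which asks whether the effect of the partner differs with and without anti-PD-1, gave 0 called collagens for all 3 partners. For anti-TGF-β, Col5a3 had an interaction of -1.23 (SE 0.58, adjusted p = 0.959), in the direction of a lower value in the combination than the sum of both effects. Col23a1 (-2.33) and Col4a5 (-0.65) had the same sign. Without anti-TGF-β replicate 2, the tumor of highest Col3a1, the interaction of Col5a3 was -0.48 and that of Col23a1 -1.18, and 0 collagens passed the unadjusted threshold, as was so without anti-TGF-β plus anti-PD-1 replicate 5 (up to 7 lower without its replicate 1). Without anti-PD-1 replicate 1 that of Col5a3 was -0.70, and without anti-PD-1 replicate 2 that of Col23a1 was -0.97. At the unadjusted threshold 2.3% of genes passed for anti-TGF-β, 0.752% higher and 1.55% lower. For the FcD form Col28a1 (1.55) was higher and Col18a1 (-0.52) lower (0 and 0 without isotype replicate 1), where 4.49% of genes passed, 2.45% higher and 2.05% lower. For the WT form there were 0 of 30 collagens, where 8.75% passed, 4.3% higher and 4.44% lower. With the library set in the model the WT form had 0 higher and 4 lower, where 4.29% and 4.51% of genes were. Its count was 3 higher and 0 lower in libraries 61 to 80 alone, where 9.47% and 7.22% of genes were, and 0 higher and 1 lower in libraries 41 to 60. Leaving out single tumors gave at most 1 higher (without replicate 5 of the WT combination) and 3 lower (without anti-PD-1 replicate 2 or WT replicate 3). For the FcD form, libraries 61 to 80 gave 7 higher and 1 lower, where 4.15% and 2.23% of genes were, and libraries 41 to 60 gave 0.

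In the other comparisons too, the counts of collagens at an unadjusted p under 0.05 differed between the library sets, each of which holds 2 or 3 tumors of a group. The WT combination against isotype had 8 higher and 4 lower in libraries 61 to 80, where 20.8% and 15.2% of genes were, and 0 in libraries 41 to 60. Against anti-PD-1 it had 6 higher and 1 lower in libraries 61 to 80, where 14.9% and 8.82% of genes were, and 0 in libraries 41 to 60. For the main effect of anti-PD-1 these were 5 higher and 3 lower, where 14.5% and 11.7% of genes were, and 0. For anti-TGF-β against anti-GARP:TGF-β1 they were 1 higher and 8 lower, where 14.6% and 15.4% of genes were, and 1 higher and 0 lower. In libraries 41 to 60 at most 1.62% of all genes passed in 1 direction in any of the 18 comparisons. The difference between the sets was not tested.

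The genes that fold, modify and cross-link collagen were followed as a list of 34, of which 32 were tested. They include the procollagen chaperone Serpinh1, the prolyl and lysyl hydroxylases (P4h, P3h and Plod genes), the procollagen proteinases Bmp1 and Adamts2, and the lysyl oxidases. None passed the adjusted threshold in the 18 comparisons, and the smallest adjusted p was 0.0563. The largest counts at an unadjusted p under 0.05 were 7 higher (anti-TGF-β against anti-GARP:TGF-β1) and 8 lower (main effect of anti-PD-1). In the former 10.7% of all genes were higher. For the main effect of anti-TGF-β 1 was higher and 5 lower at an unadjusted p under 0.05, where 6.49% and 7.64% of all genes were. Plod1 had a log2 fold change of -0.22 (SE 0.07, adjusted p = 0.22) and Plod2 one of -0.41 (SE 0.13, adjusted p = 0.229). For the main effect of anti-PD-1 0 were higher and 8 lower, led by the collagen galactosyltransferase Colgalt1 (-0.09, SE 0.02) and the prolyl hydroxylase P3h3 (-0.18, SE 0.06), where 10.1% of all genes were lower.

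Other matrix proteins (34 of 35 tested) and TGF-β response genes (23 of 25) also had 0 called. Under the main effect of anti-TGF-β, 6 matrix genes were lower and 0 higher at an unadjusted p under 0.05, where 7.64% of all genes were lower and 6.49% higher. Fibronectin (Fn1) had a log2 fold change of -0.55 (SE 0.14, adjusted p = 0.142) and Fbln2 one of -0.31 (SE 0.09, adjusted p = 0.191). Among the response genes 3 were lower and 0 higher, with Smad7, which feeds back on TGF-β signaling, at -0.27 (SE 0.10, adjusted p = 0.242) and Ltbp2 at -0.36 (SE 0.16, adjusted p = 0.328). In the same comparison, 0 of the 30 collagens were lower at that threshold and the median collagen stood at -0.01. Over the 18 comparisons, matrix genes reached 8 higher (FcD combination against isotype) and 7 lower (anti-TGF-β plus anti-PD-1 against isotype) at that threshold. Response genes reached 3 higher (FcD combination against isotype) and 5 lower (anti-TGF-β against anti-GARP:TGF-β1). Of all genes, 10.7% were higher in the FcD comparison, and 11.6% and 10.4% were lower in the comparisons named for lower genes. The lists were not tested against each other.

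Across tumors, with group means removed, the collagens fell into steady and variable chains. The within-group SD of log2 CPM had a median of 0.56 over the 30 collagens and 0.25 over all genes tested. It was lowest for Col16a1 (0.24), Col7a1 (0.25), Col8a1 (0.26), Col4a1 (0.26), Col1a2 (0.26), Col4a2 (0.26), Col18a1 (0.28) and Col5a1 (0.29). It was highest for Col10a1 (1.23), Col5a2 (1.11) and Col12a1 (1.03). Col3a1 stood at 0.69 and Col1a1 at 0.55.

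The variable fibrillar chains followed fibroblast markers. The level of a marker list is the mean log2 CPM of its tested genes, here 21 of 22 fibroblast markers that hold no collagen (the most abundant are Cd34 and Fbln2). Col5a2 had a Pearson r of 0.951 and a Spearman rho of 0.937 with it over 40 tumors, Col3a1 of 0.917 and 0.847, Col5a3 of 0.908 and 0.846, and Col1a1 of 0.858 and 0.756. Each p of these was 1e-05, the smallest that 100000 permutations within groups can give. After adjustment over 188 relations it was 8.17e-05 for each r and 9.89e-05 for each rho. Leaving out the 2 tumors farthest from the median of the markers left r at 0.938 for Col5a2, 0.869 for Col3a1, 0.857 for Col5a3 and 0.777 for Col1a1. Within libraries 41 to 60 and 61 to 80, r was 0.962 and 0.924 for Col5a2, and 0.961 and 0.672 for Col1a1. These genes share libraries and depth with the markers, and the relation says nothing of which cells held the RNA.

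Col1a2 stood apart from its partner. Its r with fibroblast markers was 0.405 (adjusted permutation p = 0.05) and its rho 0.314 (adjusted permutation p = 0.162). The r fell to 0.22 without the 2 farthest tumors and was 0.866 in libraries 41 to 60 against -0.00805 in libraries 61 to 80. The difference between the sets was not tested. Col1a1 and Col1a2 followed each other with an r of 0.68 (rho 0.673, adjusted p = 0.000269). In all, 18 of 30 collagens had a positive relation with fibroblast markers that passed an adjusted p of 0.05, and 0 a negative one. Col1a2 was among the 18. Relations with this and the other marker lists were computed for collagens only, so no share of all genes stands beside such counts. The summed fibroblast markers ran from 1834 to 1964 CPM in isotype tumors, 1745 to 2012 with anti-TGF-β, 1906 to 2199 with anti-PD-1, 1738 to 2105 with anti-GARP:TGF-β1 WT and 1818 to 1942 with the FcD form. They ran from 1702 to 2000 CPM in anti-TGF-β plus anti-PD-1, 1290 to 1958 in the WT combination and 1754 to 1969 in the FcD combination. No fibroblast marker was at 0 in all tumors, and the part of the markers in the treatment comparisons was not tested.

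**Figure D5:**
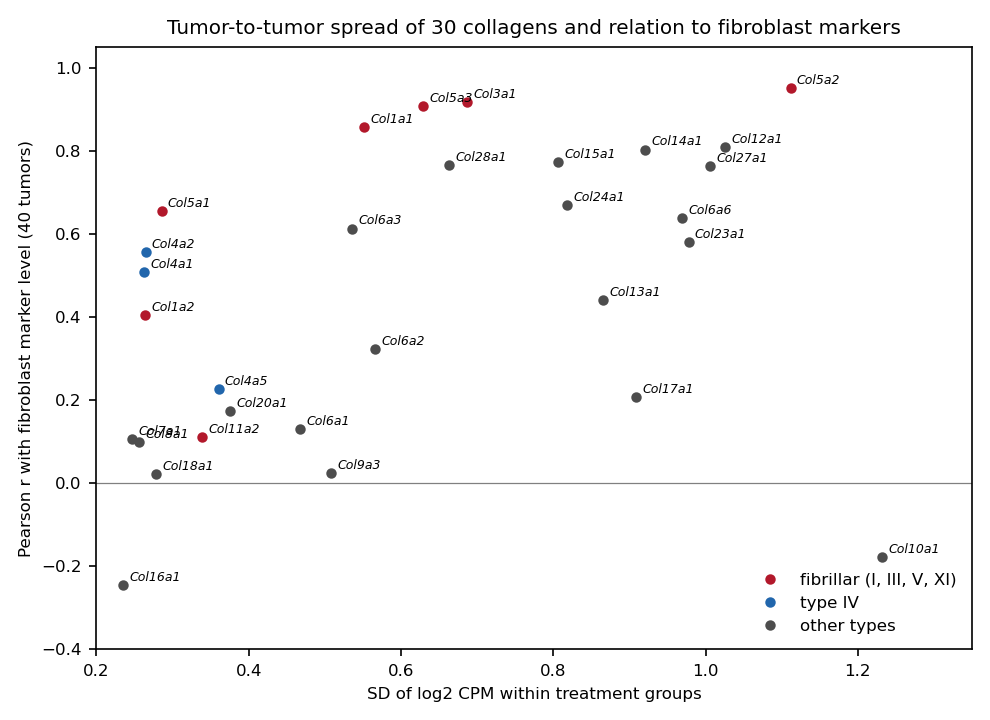
Within-group SD of log2 CPM (x axis) against the Pearson r with the fibroblast marker level over 40 tumors (y axis) for the 30 collagens tested. Col3a1, Col5a2, Col5a3 and Col1a1 sit at the top with r from 0.858 to 0.951, and Col16a1 and Col10a1 lie below 0.

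With endothelial markers, 18 of 30 collagens had a positive relation that passed and 0 a negative one. Of the 3 type IV chains tested, 2 followed them, with an r of 0.759 for Col4a2 (rho 0.738, adjusted permutation p = 8.17e-05) and of 0.692 for Col4a1 (rho 0.638, adjusted p = 0.000269). Within libraries 41 to 60 and 61 to 80 these were 0.812 and 0.538 for Col4a2. Col4a5 did not pass (r -0.124, rho -0.0574, adjusted permutation p = 0.653). Col5a3 (r 0.851), Col12a1 (0.796) and Col5a2 (0.79) had a higher r than Col4a1 and Col4a2. Col15a1, a basement membrane collagen of vessels, had the highest r with this list, 0.898 (rho 0.848, adjusted permutation p = 8.17e-05), and kept 0.89 without the 2 farthest tumors. The 16 endothelial markers, led by Pecam1 and Plvap, summed to 207 to 299 CPM in isotype tumors and 176 to 928 CPM in the WT combination.

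The partner chains of 1 protein moved together to different degrees. Col4a1 and Col4a2 had an r of 0.96 (rho 0.953) and Col6a1 and Col6a2 one of 0.933 (rho 0.884). Col6a3, the third chain of type VI, had an r of 0.654 with Col6a2 (rho 0.653) and 0.468 with Col6a1 (rho 0.446, adjusted p = 0.0174). Col5a1 and Col5a2 had an r of 0.62 (rho 0.447, adjusted p = 0.0023), which was 0.93 in libraries 41 to 60 and 0.0346 in libraries 61 to 80. Col3a1 had an r of 0.91 with Col1a1 and of 0.881 with Col5a2. The pairs and the leukocyte list were chosen after the data had been examined.

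With the other lists, 3 of 30 collagens had a positive relation with keratinocyte markers and 0 a negative one. Col17a1 followed them (r 0.776, rho 0.727, adjusted p = 0.000134), at 0.37 in libraries 41 to 60 and 0.802 in libraries 61 to 80. The r of Col9a3 was 0.533 (adjusted permutation p = 0.02) and that of Col7a1 0.458 (adjusted permutation p = 0.047), while their rho of 0.435 and 0.278 missed the threshold (adjusted permutation p = 0.0551 and 0.249). Adipocyte markers had positive relations with 13 of 30 collagens, led by Col5a2 (r 0.847, rho 0.8), and skeletal muscle markers with 0 of 30. Of the leukocyte relations, 14 were positive and 1 negative. The negative one was Col16a1 (r -0.59, adjusted permutation p = 0.00592). Its rho of -0.4 missed the threshold (adjusted permutation p = 0.0555), and its r was -0.345 without the 2 farthest tumors. The marker lists overlap in the tumors they pick out, so a collagen can relate to several of them.

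Between the 2 sets of libraries, 1 of 30 collagens was called, where 1.68% of all genes (248) were. At an unadjusted p under 0.05 there were 3 collagens higher in libraries 61 to 80 (Col10a1, Col17a1 and Col18a1) and 1 lower (Col6a6), where 12.5% of genes passed, 5.47% higher and 7.03% lower. Leaving out single tumors gave 3 to 7 higher and 1 to 4 lower. There were 7 higher without anti-TGF-β replicate 2 or WT replicate 1, 6 without anti-PD-1 replicate 1, and 5 without anti-PD-1 replicate 5 or anti-TGF-β replicate 4. There were 4 lower without replicate 5 of the WT combination or replicate 4 of the FcD combination, and 6 without both. Col10a1, the type X collagen of hypertrophic cartilage, stood at 0 to 0.856 CPM in libraries 41 to 60 (mean 0.205, n = 20) and at 0 to 2.79 CPM in libraries 61 to 80 (mean 1.03, n = 20). In isotype tumors the 2 libraries of the first set had 0.185 and 0.149 CPM and the 3 of the second 1.11, 1.18 and 1.59. The log2 fold change, with treatment in the model, was 2.40 (SE 0.34, 95% interval 1.72 to 3.09, adjusted p = 1.14e-05). The exception in the second set was anti-GARP:TGF-β1 WT plus anti-PD-1 replicate 5, at 0 CPM. Exons of Nt5dc1 overlap Col10a1 by 18 bases on the opposite strand. Nt5dc1 itself had a median of 13.3 CPM in libraries 41 to 60 and 11.6 in libraries 61 to 80 (log2 fold change -0.15, SE 0.08, adjusted p = 0.422). The sets differ in Y transcripts and Xist as well as in library number, and what else separates them cannot be told apart here.

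The 14 collagens that did not pass the filter had 3 to 213 counts each over all 40 tumors. They were Col2a1, Col11a1, Col4a3, Col4a4, Col4a6, Col6a4, Col6a5, Col8a2, Col9a1, Col9a2, Col19a1, Col22a1, Col25a1 and Col26a1. Col8a2 had the most counts among them, 213 in 38 tumors, and Col19a1 and Col26a1 the fewest. Col2a1, the main collagen of cartilage, had 58 counts in 28 tumors. Among the collagens that passed, Col24a1 had the fewest counts, 272, and Col6a6 had 288.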

How the data were processed

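RNA of 40 CT26 tumors was sequenced by the authors, aligned to GRCm38 with STAR 2.5.3a and counted per gene with HTSeq 0.9.1. The deposited values are raw read counts per gene, not normalised. The strand setting of the counting is not given in the sources used here. Libraries held 11931730 to 20680548 counts, which limits precision for the scarce chains.

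TMM normalisation and the tests were run in edgeR 4.0.16, with limma 3.58.1 and R 4.3.3. Genes with low counts were removed by filterByExpr on the 8 groups, and all 40 tumors entered a single quasi-likelihood model. Every p on a comparison in the text is from this edgeR test unless another is named, with Benjamini-Hochberg adjustment over 14760 genes and a threshold of 0.05. Groups came from the sample labels, which number no replicates, so replicate numbers only name tumors. Each tumor came from a separate mouse. RPKM used GENCODE gene models on GRCm38.

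Relations between genes used log2 CPM (prior count 2) with group means removed, and permutations within groups. DESeq2 1.42.0 was an alternative, beside other normalisation, no filter, the 2 sets of libraries, and leaving out each tumor. The steps were tested on simulated data. Named genes were the fibrillar and type IV chains tested, the 8 most abundant others, and for each comparison up to 3 higher and 3 lower collagens with the smallest unadjusted p under 0.05. Beyond these, the text names further collagens below that threshold, and Krt5, Acan, Matn1 and Comp, which were chosen after their values were seen. The members, gene lists and comparisons were chosen with earlier results of these data known.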

Additional observations from a re-analysis of the deposited data

Results flagged for a closer look

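Single tumors stood away from the other 4 of their group for several collagens. Over 18 collagens and 8 groups, 144 sets of 5 values were examined, and in 20 the highest or lowest tumor was separated from its nearest neighbor by more than 0.71 of the range (Dixon's 95% limit). Chance gives about 1 in 20 such sets, and the values of 1 tumor are not independent of each other. The 20 came from 8 tumors.

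Anti-TGF-β replicate 2 was the highest of its group for Col3a1 (2263 CPM), Col5a2 (214 CPM), Col5a3 (118 CPM) and Col15a1 (64.0 CPM). Anti-PD-1 replicate 1 was the highest for Col3a1 (1563 CPM), Col1a1 (802 CPM), Col5a2 (124 CPM) and Col5a3 (84.9 CPM). Anti-GARP:TGF-β1 WT replicate 1 was the highest for Col3a1 (1433 CPM), Col5a2 (110.2 CPM) and Col5a3 (64.1 CPM). Anti-TGF-β plus anti-PD-1 replicate 1 was the highest for Col3a1 (1008 CPM), Col6a3 (101 CPM) and Col15a1 (29.1 CPM).

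The remaining values were Col1a2 (1535 CPM) and Col5a1 (177 CPM), both highest in isotype replicate 4, and Col4a1 (302 CPM) and Col4a2 (188 CPM), both lowest in anti-GARP:TGF-β1 WT replicate 3. Col3a1 was highest in anti-GARP:TGF-β1 WT plus anti-PD-1 replicate 3 (730.0 CPM), and Col14a1 in anti-GARP:TGF-β1 FcD replicate 5 (16.2 CPM).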

How the results depend on the processing

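The count of collagens called was 0 in all 18 comparisons of treatments and moved in 10 of 458 alternatives over these and the comparison of library sets. A count of 0 that stays 0 says little of stability, and the counts at an unadjusted p moved more widely. In the fits that left out tumors, the share of all genes at an unadjusted p was not counted. Within libraries 61 to 80 alone, 2 collagens (Col12a1 and Col6a1) were called for anti-GARP:TGF-β1 WT plus anti-PD-1 against isotype. For anti-TGF-β against anti-GARP:TGF-β1, 3 were called there (Col4a1, Col4a2 and Col6a3). The share of all genes called in these fits was not counted. At an unadjusted p under 0.05, 20.8% of genes were higher and 15.2% lower for the former, and 14.6% and 15.4% for the latter. With DESeq2 the latter had 1 (Col20a1), and leaving out single tumors gave 0 to 1, with 1 without anti-GARP:TGF-β1 FcD plus anti-PD-1 replicate 2 or anti-TGF-β plus anti-PD-1 replicate 1. For the main effect of anti-PD-1, leaving out single tumors gave 0 to 3, with 3 without anti-TGF-β replicate 2, and leaving out both tumors of highest Col3a1, an alternative chosen after seeing the data, also gave 3. Between the sets of libraries, 3 collagens were called with DESeq2 and 3 with no filter, counted over all collagens in those fits, of which 1 (Col10a1) was among the 30, leaving out single tumors gave 1 to 2, and leaving out both tumors of highest Col9a2, also chosen after seeing the data, gave 2. Of the log2 fold changes of named collagens, 1174 of 1196 alternatives kept their direction and side of the threshold, 9 passed it and 13 turned sign. Of the main values only that of Col10a1 between the library sets lay under the adjusted threshold, so keeping the other side says little. Values counted as kept could still differ in size. Col17a1 in the FcD combination against isotype went from 1.53 to 0.41 without replicate 4. Col23a1 in anti-TGF-β plus anti-PD-1 against anti-PD-1 went from -1.56 to -0.20 without anti-PD-1 replicate 2. The sign turned for Col17a1 in anti-GARP:TGF-β1 FcD plus anti-PD-1 against isotype (-0.0436, libraries 41 to 60), for Col23a1 in anti-TGF-β plus anti-PD-1 against anti-PD-1 (0.90, libraries 61 to 80) and in the interaction (0.58, libraries 61 to 80), and for Col1a2 under anti-TGF-β (0.037, libraries 61 to 80). Leaving out single tumors, the main effect of anti-TGF-β ran from -0.11 to 0.34 for Col1a1, from -0.0595 to 0.049 for Col1a2 and from -0.059 to 0.57 for Col3a1. The causes were not tested. DESeq2 called 860 genes for the main effect of anti-PD-1, against 87 with edgeR, and 565 against 4 for anti-TGF-β against anti-GARP:TGF-β1, 536 against 248 between the sets of libraries, and 0 to 139 in the others. No paired analysis was possible because the labels give no shared replicate numbers.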
